A study of Mus musculus with 6 samples.

Results

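POU transcription factors bind DNA through 2 linked parts of the protein, a POU-specific domain and a POU homeodomain, and many of them recognise an octamer motif or close relatives of it. Class 2 members are known as octamer-binding factors and include a widely expressed gene (*Pou2f1*, Oct1), a gene of B cells (*Pou2f2*, Oct2) and a gene of epidermis and of chemosensory tuft cells (*Pou2f3*, Skn-1a). Class 3 members are best known from the nervous system, and 1 of them, *Pou3f1* (Oct6, Tst-1, SCIP), is also expressed in epidermis, where it and *Pou2f3* are known for roles in keratinocyte differentiation. *Pou5f1* (Oct4) is a pluripotency factor of the early embryo and germ line, and *Pou6f1* (Brn5) is expressed in brain and other tissues. The 8 genes described here, *Pou2f1*, *Pou2f2*, *Pou2f3*, *Pou3f1*, *Pou3f2*, *Pou3f3*, *Pou5f1* and *Pou6f1*, were chosen by symbol from classes 2, 3, 5 and 6, and they are 8 of 55536 identifiers in the count table.

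The data were bulk RNA-seq libraries of EpCAM+ and α6 integrin+ basal epidermal cells sorted from dorsal skin of mouse embryos at E16.5, with 3 Ctrl and 3 TKO libraries. Every embryo was Suv39h1 f/f, Suv39h2-/- and Setdb1 f/f, and every group received tamoxifen, so the Ctrl embryos too carried the *Suv39h2* mutation, in a gene for an H3K9 methyltransferase. TKO embryos were K14CreERT2+ and Ctrl embryos K14CreERT2-, so recombination of the floxed H3K9 methyltransferase genes depended on the *Krt14* promoter, and the litters used for bulk RNA-seq are described by the study as mosaic. By the labels, the female samples were Ctrl replicate 1 and TKO replicate 2, and the rest were male. The labels do not give the litter of each embryo, and p-values measure the spread between these samples.

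The Ctrl libraries held 102159175, 136515436 and 104422632 counts (replicates 1 to 3), and the TKO libraries held 116308383, 108957256 and 118413082. Levels are given in CPM, counts scaled to the TMM-adjusted library size, in which 3 counts, taken as the smallest detectable level, equal 0.0232 to 0.0303 CPM. The basal cell markers *Krt5*, *Krt14*, *Trp63* and *Itga6* were abundant in every library, and *Krt5*, a basal keratin and the most abundant gene of the 13 basal markers, was at 12300, 12100 and 8180 CPM in Ctrl and 6990, 8040 and 9020 CPM in TKO. The suprabasal keratin *Krt1* was also abundant, at 9970, 9780 and 10100 CPM in Ctrl and 8520, 6100 and 6300 CPM in TKO. *Setdb1*, a floxed target, was at 126, 118 and 121 CPM in Ctrl and 95.3, 62.3 and 74.9 CPM in TKO, so the groups did not overlap, with a log2 fold change of -0.65 (edgeR, adjusted p = 0.286). *Suv39h1*, the other floxed target, was at 88.7, 78.5 and 84.0 CPM in Ctrl and 75.6, 68.9 and 89.4 CPM in TKO, with overlapping groups and a log2 fold change of -0.10 (edgeR, adjusted p = 1). *Suv39h2*, labelled as deleted in both groups, still had counts in every library, at 15.6 to 17.1 CPM in Ctrl and 16.0 to 18.9 CPM in TKO. Counts over a whole gene do not show whether reads came from the deleted part, so they do not check the labels. Fewer cells of a type and less RNA per cell cannot be told apart in bulk samples.

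The family is recognised by the DNA contact helix of its homeodomain, and the coding stretch of that helix is shown because it places the 8 genes beside each other. It was read from the GENCODE vM39 transcripts (GRCm39), 36 bases each, with capitals at the 19 bases that are the same in all 8 genes.
Pou2f1: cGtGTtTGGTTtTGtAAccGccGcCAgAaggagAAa
Pou2f2: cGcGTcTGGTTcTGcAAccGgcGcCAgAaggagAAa
Pou2f3: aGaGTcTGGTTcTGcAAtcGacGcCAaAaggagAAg
Pou3f1: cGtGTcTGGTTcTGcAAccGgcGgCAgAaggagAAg
Pou3f2: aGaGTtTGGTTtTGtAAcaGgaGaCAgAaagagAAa
Pou3f3: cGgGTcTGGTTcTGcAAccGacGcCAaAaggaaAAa
Pou5f1: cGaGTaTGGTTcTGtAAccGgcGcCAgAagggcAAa
Pou6f1: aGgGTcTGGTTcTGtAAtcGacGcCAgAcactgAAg
*Pou3f1* and *Pou2f3* differ at 6 of these 36 bases, the closest pair, *Pou2f2* and *Pou3f1*, at 3, and *Pou3f2* differs from both *Pou3f3* and *Pou6f1* at 12. Read in frame, the stretches of *Pou2f1*, *Pou2f2*, *Pou2f3*, *Pou3f1*, *Pou3f2* and *Pou3f3* encode the same amino acids. Only those of *Pou5f1* and *Pou6f1* encode different ones. The counts of differing bases therefore do not rank the genes by likeness of the protein helix. The longest exact run shared by transcripts of different members was 38 bases, between *Pou3f1* and *Pou3f2*. Sequences next to the start sites were searched in 9 RefSeq windows (GRCm38.p6) of 250 bases, which cover 6 of the 8 genes and not *Pou3f1* or *Pou2f3*. The octamer ATGCAAAT, on either strand, was in 0 of the 9 windows and in 1.6% of all 32851 windows of this length. The CCAAT letters, on either strand, were in 4 of the 9 (*Pou3f2*, *Pou3f3* and both of *Pou5f1*) and in 33.8% of all windows. These matches describe the letters only.

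Among the 8 genes, 4 were abundant, *Pou3f3* and *Pou2f2* were low but above 3 counts in every library, and *Pou3f2* and *Pou5f1* were around that limit of detection. Per kilobase of exon (RPKM, over the union of exons), *Pou2f3* had the highest Ctrl mean at 73.9, followed by *Pou3f1* at 13.1, *Pou2f1* at 5.03 and *Pou6f1* at 2.82. *Pou3f3* at 0.0933, *Pou2f2* at 0.0325, *Pou5f1* at 0.00836 and *Pou3f2* at 0.00443 came next. In Ctrl, neighbours in this order did not overlap between libraries except *Pou5f1* and *Pou3f2*, whose levels rest on 0 to 5 counts. This order depends on the length used. With the length of the canonical transcript, *Pou2f1* was at 32.3 and *Pou3f1* at 13.1 RPKM. *Pou2f2* and *Pou3f3* also swapped places, at 0.113 and 0.0985 RPKM, and their Ctrl libraries then overlapped. *Pou2f3* remained the highest at 93.8 RPKM.

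**Figure D1:**
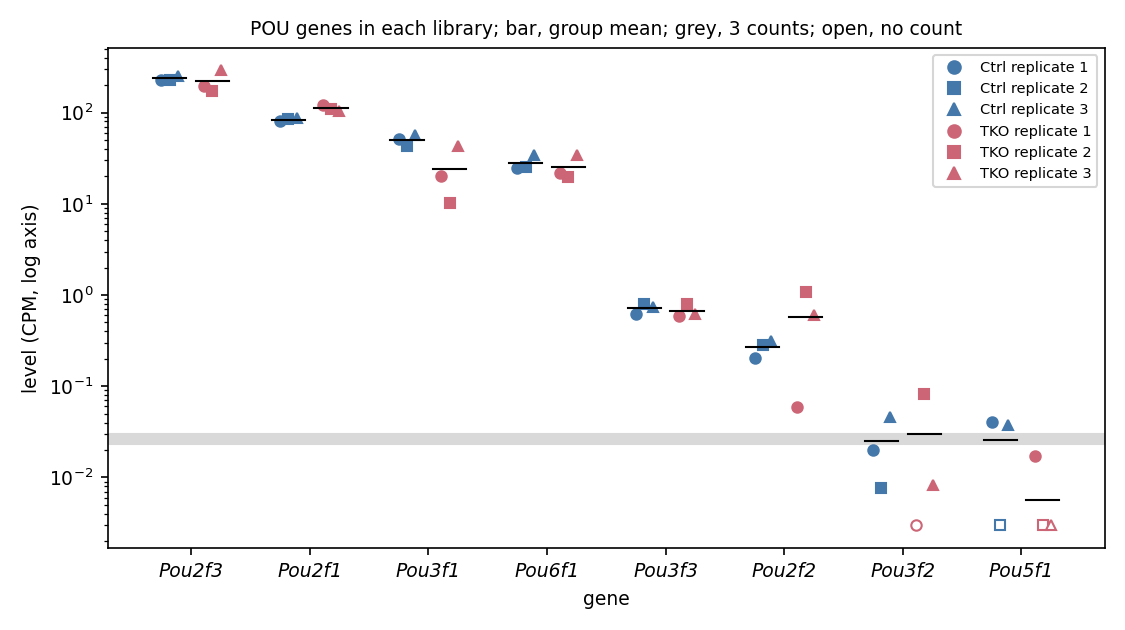
Level in CPM (log axis) of the 8 POU genes in each Ctrl and TKO library, with bars at the group means, a grey band at the CPM of 3 counts and open symbols for libraries with no count, drawn at the foot of the axis. *Pou2f3*, *Pou2f1*, *Pou3f1* and *Pou6f1* lie above 10 CPM in every library, and *Pou3f2* and *Pou5f1* lie around the band.

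None of the 8 genes passed the test between TKO and Ctrl. Of 20622 genes tested, 0.131% (27 genes) were called by edgeR's quasi-likelihood test with an adjusted p under 0.05 and a log2 fold change beyond 1 in size, all of them higher in TKO. Counts of called genes in the lists below are by the same edgeR test. The low-count filter kept 6 of the 8 genes and left out *Pou3f2* and *Pou5f1*. Of the 6, *Pou3f1* alone had an unadjusted p under 0.05 with lower values in TKO, against a background of 2.02% of tested genes, and *Pou2f1* alone had one with higher values, against 4.06%. These same genes were those whose groups did not overlap, 1 lower against a background of 5.11% and 1 higher against 6.35%. The median log2 fold change of all tested genes was 0.01.

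*Pou3f1*, a single-exon gene on chr4:124550600-124554448 (+ strand, GRCm39), had the largest log2 fold change in size among the 4 abundant genes. It was at 51.0, 43.5 and 56.7 CPM in Ctrl and 20.1, 10.1 and 43.1 CPM in TKO replicates 1, 2 and 3. All 3 TKO libraries were under the Ctrl libraries, but TKO replicate 3 was only just under Ctrl replicate 2. The Ctrl mean was 50.4 ± 6.62 CPM (SD, n = 3) and the TKO mean 24.4 ± 16.9 CPM (SD, n = 3), 48.5% of it. The log2 fold change was -1.05 with an SE of 0.427 and a 95% interval from -2.01 to -0.08, and it was not called (edgeR, adjusted p = 0.778). Without TKO replicate 3 the log2 fold change was -1.74 and the gene was called (edgeR, adjusted p = 0.0476), where 0.375% of 21573 tested genes were called. Without TKO replicate 2 it was -0.68 and not called (edgeR, adjusted p = 1). DESeq2 on the same genes, which called 1.04% of them, gave an adjusted p of 0.79 for *Pou3f1*.

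The lncRNA gene Gm2164, on the other strand, covers 555 of the 3849 exon bases of *Pou3f1* (14.4%) and was at 0.109 to 1.67 CPM over the 6 libraries, and whether the counting used strand is not given in the sources used here. The summed level of the 29 suprabasal differentiation markers in the table was 19600, 19500 and 21400 CPM in Ctrl and 17600, 13400 and 14000 CPM in TKO, so TKO replicate 2, lowest for *Pou3f1*, was also lowest there, whereas TKO replicate 3, near Ctrl for *Pou3f1*, was close to it. Most of this sum was *Krt1* and *Krt10*, and other markers ordered the TKO libraries differently, such as *Krt77*, another suprabasal keratin, at 95.3, 98.7 and 14.4 CPM in TKO replicates 1, 2 and 3. Of the 23 suprabasal markers tested, 0 were called, and the median log2 fold change was 0.03. *Krt1*, *Krt10* and *Flg2* were lower without overlap, and *Sprr1b* (log2 fold change 2.59, adjusted p = 0.214 by edgeR) and *Sprr2a3* (1.92, adjusted p = 0.0502 by edgeR) were higher without overlap, against 5.11% of all tested genes lower and 6.35% higher. Of the 13 basal markers, 0 were called and the median was also 0.03, with a summed level of 26300, 26400 and 20000 CPM in Ctrl and 17300, 19400 and 21300 CPM in TKO. Among them *Itgb4* and *Itga3*, integrin subunits, were higher without overlap (log2 fold changes of 0.24 and 0.28). *Krt15*, a basal keratin, was lower without overlap, at 2720, 2580 and 2090 CPM in Ctrl and 901, 792 and 1570 CPM in TKO (log2 fold change -1.18, adjusted p = 0.185 by edgeR), and as for *Pou3f1* TKO replicate 2 was the lowest and replicate 3 the highest of the TKO libraries. The part of cell makeup in the *Pou3f1* values was not tested.

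*Pou2f3* (chr9:43035228-43121666, - strand) had the highest level of the family, and its groups overlapped. It was at 229, 227 and 254 CPM in Ctrl and 198, 171 and 290 CPM in TKO. TKO replicates 1 and 2 were below the Ctrl libraries and TKO replicate 3 was above them. The means were 237 ± 15.5 and 220 ± 62.6 CPM (SD, n = 3 each), with a log2 fold change of -0.11, an SE of 0.193 and a 95% interval from -0.54 to 0.32 (edgeR, adjusted p = 1). The interval leaves out a change as large as 2-fold in either direction.

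Set beside *Pou2f3* within the same library, *Pou3f1* had 22.3, 19.2 and 22.3 counts per 100 *Pou2f3* counts in Ctrl and 10.1, 5.92 and 14.8 in TKO. This ratio needs no library scaling, and it was lower in all 3 TKO libraries than in any Ctrl library. The mean log2 ratio was -2.24 ± 0.12 in Ctrl and -3.38 ± 0.67 in TKO (SD, n = 3 each), a difference of -1.14. An exact two-sided permutation test gave p = 0.1, the smallest p that 3 against 3 libraries allow. Over the 6 pairs of the 4 abundant genes the adjusted p was 0.2 or more by the same exact permutation test, and *Pou2f3* against *Pou6f1* differed least, by 0.04 between groups (p = 0.9).

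**Figure D2:**
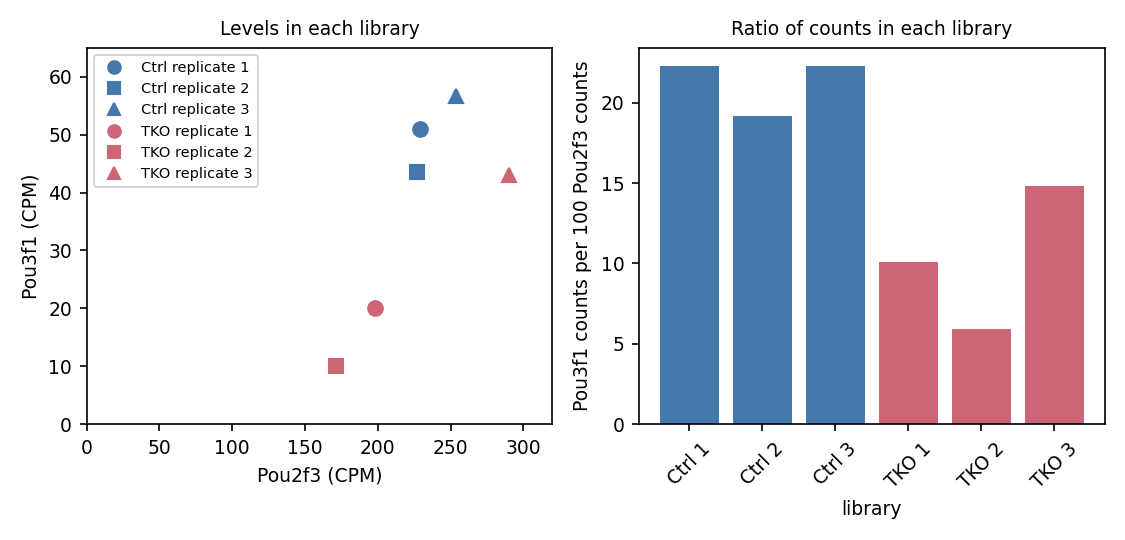
Left, level of *Pou3f1* against *Pou2f3* (CPM) in each library. Right, *Pou3f1* counts per 100 *Pou2f3* counts in each library, with Ctrl in blue and TKO in red. The ratio is 19.2 to 22.3 in the Ctrl libraries and 5.92 to 14.8 in the TKO libraries, and the TKO replicate with the highest *Pou2f3* level, replicate 3, also has the highest *Pou3f1* level of the TKO libraries.

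*Pou2f1* (chr1:165692723-165830247, - strand) was the only member with non-overlapping groups and higher values in TKO. It was at 80.0, 84.7 and 86.5 CPM in Ctrl and 121, 110 and 104 CPM in TKO. All TKO libraries lay above all Ctrl libraries, with means of 83.8 ± 3.39 and 112 ± 8.70 CPM (SD, n = 3 each), 133% of the Ctrl mean. The log2 fold change was 0.41 with an SE of 0.121 and a 95% interval from 0.14 to 0.69, and it was not called (edgeR, adjusted p = 0.437), under the threshold on fold as well. *Cd247*, a T cell gene, covers 3007 of the 16653 exon bases of *Pou2f1* (18.1%) on the other strand and was at most 0.0634 CPM in any library.

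*Pou6f1* (chr15:100473193-100498423, - strand) was at 24.6, 25.1 and 34.5 CPM in Ctrl and 21.8, 19.8 and 34.1 CPM in TKO. In both groups replicate 3 was the highest and the groups overlapped, with means of 28.1 ± 5.58 and 25.2 ± 7.79 CPM (SD, n = 3 each). The log2 fold change was -0.15 with a 95% interval from -0.67 to 0.36 (edgeR, adjusted p = 1).

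By exon union, *Pou2f3* held 77.1 to 78.8% of the summed RPKM of the 8 genes in Ctrl and 80.7 to 82.3% in TKO. *Pou3f1* held 12.6 to 14.4% in Ctrl, with 6.82 and 4.04% in TKO replicates 1 and 2 and the highest TKO share in replicate 3. *Pou2f1* held 5.21, 5.65 and 5.05% in Ctrl and 9.48, 10.2 and 5.60% in TKO. These shares depend on the length used as well. By canonical length, *Pou2f3* held 64.7 to 64.9% in Ctrl and 58.3, 57.8 and 66.4% in TKO, so for this gene the groups overlapped and TKO replicates 1 and 2 were lower instead of higher. *Pou2f1* then held 22.1, 23.5 and 21.4% in Ctrl and 34.7, 36.2 and 23.2% in TKO, and *Pou3f1* held 9.47, 8.13 and 9.46% in Ctrl and 3.88, 2.24 and 6.46% in TKO. Lower shares of *Pou3f1* in all 3 TKO libraries than in any Ctrl library were seen with both lengths. By exon union the summed RPKM was 92.2, 90.0 and 103 in Ctrl and 76.6, 64.9 and 112 in TKO, so the groups overlapped and TKO replicate 3 was the highest of all 6 libraries. Over the 6 libraries and 14051 genes compared, *Pou3f1* was most like *Thbs1*, *Cnpy3* and *Fam83c* (Pearson's r on log2 CPM of 0.9954, 0.9949 and 0.9943), and *Pou2f3* was most like *Hmox2*, *Pcgf1* and *Chst3* (0.9968, 0.9937 and 0.9921). These are descriptions, and all genes share the same 6 libraries.

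The other 4 members had low counts, and *Pou3f2* and *Pou5f1* had no count in at least 1 library. *Pou3f3*, a factor of the developing brain and kidney on chr1:42734085-42742336 (+ strand), was at 0.626, 0.797 and 0.742 CPM in Ctrl and 0.586, 0.788 and 0.625 CPM in TKO. Its log2 fold change was -0.12 with a 95% interval from -1.02 to 0.79 (edgeR, adjusted p = 1), so the groups overlapped and a 2-fold decrease was not left out. *Pou3f2* (chr4:22482780-22488366, - strand), a neural factor also known in melanocytes, had 2, 1 and 5 counts in Ctrl and 0, 9 and 1 counts in TKO. *Pou5f1* (chr17:35816789-35822274, + strand) had 4, 0 and 4 counts in Ctrl and 2, 0 and 0 counts in TKO. Both were left out of the test. Of the 13 pluripotency markers in the table only *Sox2*, *Dppa2* and *Klf4* passed the low-count filter and 0 were called, and the most abundant, *Klf4*, a gene also known in keratinocytes, was at 261 to 306 CPM in all 6 libraries.

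*Pou2f2* (chr7:24786769-24879151, - strand) had 20, 37 and 34 counts in Ctrl and 7, 118 and 74 counts in TKO, or 0.202, 0.286 and 0.315 CPM and 0.0595, 1.07 and 0.608 CPM. TKO replicate 1 was the lowest and replicate 2 the highest of the 6 libraries, so the groups overlapped. The log2 fold change was 1.11 with a 95% interval from -0.74 to 2.95 (edgeR, adjusted p = 1). It was 0.31 without TKO replicate 2, 1.63 without TKO replicate 1 and 0.53 when replicates were blocked, none of them called. The summed level of 12 B cell and immune markers was 10.3, 23.3 and 7.66 CPM in the Ctrl libraries and 5.57, 42.6 and 10.7 CPM in TKO, with TKO replicate 1 again lowest and replicate 2 highest. The most abundant of them, *Lyz2* of myeloid cells, was at 4.98, 17.3 and 3.07 CPM in Ctrl and 1.32, 33.7 and 4.57 CPM in TKO, while the B cell markers *Cd79a*, *Cd79b*, *Ms4a1* and *Pax5* stayed under 1 CPM in every library, and *Ms4a1* and *Pax5* were not tested. Of the 8 immune markers tested, 0 were called. *Cd74*, an antigen presentation gene, alone did not overlap, with higher values in TKO (log2 fold change 0.67), against 6.35% of all tested genes. The part of immune cells in the *Pou2f2* counts was not tested.

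**Figure D3:**
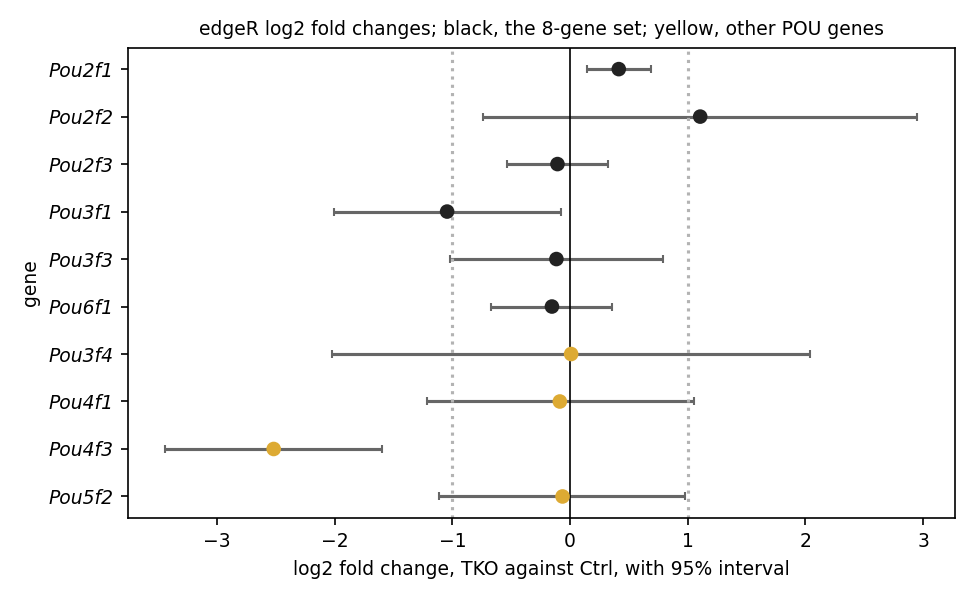
Log2 fold change of TKO against Ctrl by edgeR, with 95% intervals, for the 6 tested genes of the 8 (black) and the 4 tested genes among the other POU genes (yellow), with dotted lines at the fold threshold. *Pou3f1* and *Pou2f1* have intervals that leave out 0, as has *Pou4f3*.

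Of the other POU genes, 4 were tested (*Pou3f4*, *Pou4f1*, *Pou4f3* and *Pou5f2*) and 0 were called, with a median log2 fold change of -0.08. *Pou4f3*, a class 4 factor of Merkel cells and inner ear hair cells, was at 1.60, 1.47 and 1.77 CPM in Ctrl and 0.204, 0.317 and 0.321 CPM in TKO, without overlap. Its log2 fold change was -2.52 with an SE of 0.411, and it missed the threshold by edgeR (adjusted p = 0.0749). The same gene was called by DESeq2 (log2 fold change -2.53, adjusted p = 1.75e-06), which called 1.04% of the same genes. It was also called by edgeR without the low-count filter (adjusted p = 0.000783). That fit called many more genes, 213 higher and 22 lower of 39690, against 27 and 0 of 20622 in the main fit. Its median log2 fold change was -0.11. The log2 fold change was -0.09 for *Pou4f1*, 0.01 for *Pou3f4* and -0.06 for *Pou5f2*, all with overlapping groups. *Pou5f2*, at 0.658 to 1.87 CPM, was the most abundant of the other POU genes over the 6 libraries together. In Ctrl alone its mean was 1.4 CPM, under the 1.61 CPM of *Pou4f3*. *Pou1f1*, a pituitary factor, and *Pou4f2*, a factor of retinal ganglion cells, were at most 0.0808 CPM in any library and were not tested.

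Merkel cells are epithelial touch receptors of the epidermis, and all 7 tested Merkel cell markers of the list of 8, *Pou4f3* and *Sox2* included, were lower in TKO without overlap and with an unadjusted p under 0.05, although 0 were called. Over all tested genes, 5.11% were lower without overlap and 2.02% were lower with an unadjusted p under 0.05. The median of the 7 markers' log2 fold changes was -1.92 against 0.01 for all tested genes. The summed level of the 8 was 22.8, 25.9 and 25.1 CPM in Ctrl and 9.73, 12.2 and 12.5 CPM in TKO. *Piezo2*, the mechanosensitive channel and most abundant marker, was at 12.4, 14.5 and 13.5 CPM in Ctrl and at most 9.82 CPM in TKO, and *Krt20*, a defining keratin of the lineage, was at 0.213 CPM or less in every library and not tested. The part of the number of Merkel cells in the *Pou4f3* and *Sox2* values was not tested.

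**Figure D4:**
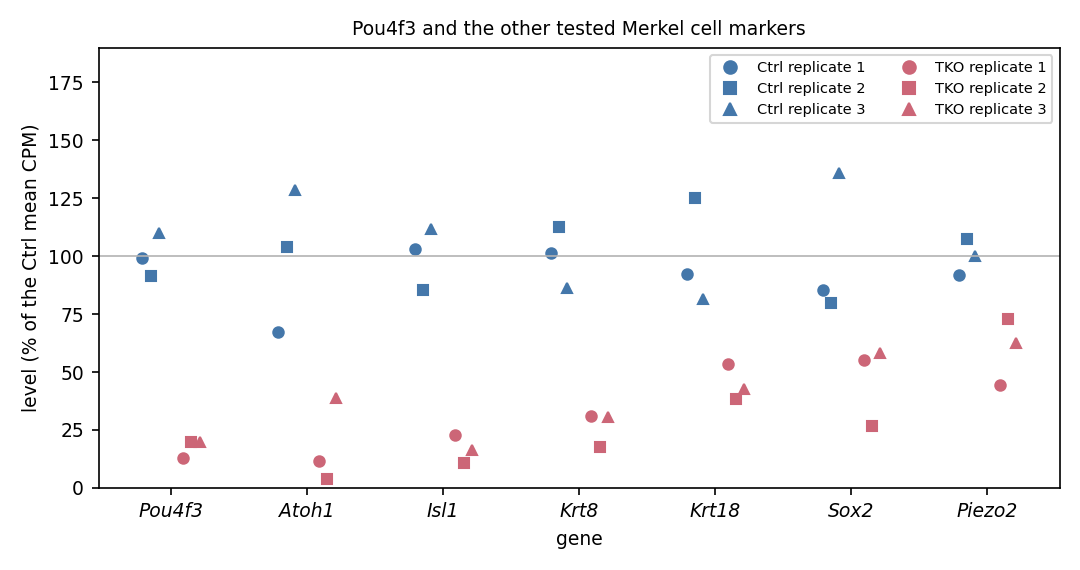
Level of *Pou4f3* and the other 6 tested Merkel cell markers in each library, as a percentage of the Ctrl mean CPM of that gene (grey line, 100%). For all 7 genes the 3 TKO libraries lie below the 3 Ctrl libraries.

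Of the 16 cofactors and partners of POU factors, 14 were tested and 0 were called, with a median log2 fold change of 0.13. The class 2 coactivators *Pou2af1* and *Pou2af2* were at most 0.0909 CPM and *Pou2af3* at most 0.206 CPM in any library, so the tuft and B cell coactivators were near or under 3 counts in several libraries. *Hcfc1*, a host cell factor that Oct1 complexes can include, was the most abundant at 358 to 538 CPM in Ctrl and 443 to 679 CPM in TKO, and *Hcfc2*, *Snapc2*, *Snapc3*, *Snapc4*, *Snapc5*, *Sox11* and *Grhl3* also overlapped between groups. Without overlap, *Snapc1*, a subunit of the small nuclear RNA activating complex that Oct1 helps to recruit, had a log2 fold change of 0.36 and the corepressors *Ctbp2* and *Ctbp1* of 0.27 and -0.23. With *Sox2*, 2 of the 14 were higher and 2 lower without overlap, against 6.35% and 5.11% of all tested genes. *Sox2*, a partner of class 3 and class 5 factors, was at 1.67, 1.56 and 2.66 CPM in Ctrl and 1.08, 0.525 and 1.14 CPM in TKO, with a log2 fold change of -1.10 (edgeR, adjusted p = 0.736). The 3 subunits of NFY, the CCAAT-binding complex, had log2 fold changes of -0.17 for *Nfya*, 0.27 for *Nfyb* and -0.03 for *Nfyc*, and 0 were called.

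Other cell types that express these factors were at the following levels. Of the 15 tuft cell markers, 10 were tested and 0 called, with a median log2 fold change of -0.01. *Spib* alone was without overlap, higher in TKO (log2 fold change 0.52), against 6.35% of all tested genes. The most abundant was *Ptgs1*, at 34.8, 48.3 and 56.1 CPM in Ctrl and 36.1, 34.0 and 62.6 CPM in TKO. *Gnat3* had no count in any library and *Trpm5*, a defining channel of tuft cells, was at 0.195 to 1.13 CPM, so tuft cell markers were near the limit of detection where *Pou2f3* was at 171 CPM or more. Of the 10 Schwann cell markers, a lineage in which *Pou3f1* acts, 8 were tested and 0 called. Their most abundant gene was *Erbb3*, also known in keratinocytes, at 168 to 269 CPM, and *Mbp*, a myelin gene, was at 38.6 to 55.0 CPM. The defining *Sox10* was under 3 CPM in every library and *Foxd3* had no count.

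Of the 8 melanocyte markers, 8 were tested and 0 called, with *Kit* the most abundant at 5.53 to 8.72 CPM. Their median log2 fold change was 0.38, and 7 of the 8 were above 0, with *Tyrp1* at -1.21. *Mlana*, a melanosome gene, alone did not overlap, with higher values in TKO (log2 fold change 3.13, adjusted p = 0.36 by edgeR), against 6.35% of all tested genes. Of the 12 neuronal markers, 10 were tested and 0 called, with *Tubb3* the most abundant at 0.51 to 1.52 CPM. Their median log2 fold change was -0.85, with 3 lower and 1 higher in TKO without overlap (5.11% and 6.35% of all tested genes), and the most negative value was that of *Isl1* (-2.57, adjusted p = 0.217 by edgeR), which the Merkel cell list also holds. Of the 8 fibroblast markers, 8 were tested and 0 called, with a median log2 fold change of -0.13. The most abundant, *Col1a1*, was at 367, 1310 and 1260 CPM in Ctrl and 799, 1030 and 1180 CPM in TKO, so Ctrl replicate 1 was lowest.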

How the data were processed

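Bulk RNA-seq counts per gene were deposited by the authors, unnormalized, 1 column for each of 3 Ctrl and 3 TKO libraries. Reads were trimmed with fastp and aligned with STAR per the labels. The labels name GRCm38 and the methods GRCm39, and the counter, annotation and strand setting are not given in the sources used here. Of 55536 identifiers, 51477 were matched by gene identifier to GENCODE vM39, which gave symbols, positions and exon lengths.

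Counts were fitted in R 4.3.3 with edgeR 4.0.16 (glmQLFit, robust, glmQLFTest) and limma 3.58.1 after filterByExpr (minimum count 10, minimum total 15) and TMM scaling, with Benjamini-Hochberg adjustment over 20622 genes. A call required an adjusted p under 0.05 together with a log2 fold change beyond 1 in size. SE is the absolute log2 fold change over the square root of F. DESeq2 1.42.0, other filters and scalings, a replicate block, sex as a factor and each library left out were alternatives. Likeness used log2(CPM + 0.5) of genes with a mean CPM of at least 1. RPKM used the union of exons. The script was tested on simulated data. Figures were drawn with Python 3.11.15 and matplotlib 3.10.9.

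The members and 13 gene lists were chosen with earlier results of these data known. Named genes were the 8 members, other POU genes, cofactors and NFY subunits, the most abundant or called genes of each marker list, and the 3 genes most like *Pou3f1* and *Pou2f3*. Other marker genes were named after their values were seen. The list symbol *Tdgf1* was not matched, and loricrin was matched under its current symbol, *Loricrin*. Some listed genes are not reported here.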

Additional observations from a re-analysis of the deposited data

How the results depend on the processing

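No call was made for any of the 8 genes under 14 of the 15 alternatives tried, and without TKO replicate 3 *Pou3f1* was called. Over the 6 fits that leave out 1 library, the log2 fold change was -1.74 to -0.68 for *Pou3f1* (edgeR, adjusted p 0.0476 to 1), 0.34 to 0.46 for *Pou2f1*, 0.31 to 1.63 for *Pou2f2*, -0.359 to 0.045 for *Pou2f3*, and -0.435 to 0.019 for *Pou6f1*, and 0 to 1 of the 8 genes were called. *Pou2f3* turned to 0.045 without TKO replicate 2 and *Pou6f1* to 0.019 without Ctrl replicate 3. With the canonical transcript length, added after seeing the data, the Ctrl ratio of *Pou3f1* to *Pou2f1* per kilobase was 0.406 in place of 2.6, and the mean Ctrl share of *Pou2f1* in the summed level of the 8 genes was 22.3% in place of 5.3%.

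Of all tested genes, those called higher in TKO numbered 27, against 193 by DESeq2 on the same genes, 197 by its default workflow, 213 without the low-count filter, 9 with at least 10 counts in every library, 44 with the replicate block and 7 to 65 with 1 library left out. Those called lower numbered 0 (416 lower at an unadjusted p under 0.05), against 21, 29, 22, and 1 with the replicate block, and 0 to 16 with 1 library left out. The cause was not tested.

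The replicate numbers were not taken as pairs. Deviations of same-numbered libraries correlated at 0.168, 0.087 and 0.127, each library correlating best with its own number, which is a hint from the data and not the design. With the replicate block the log2 fold change of *Pou3f1* was -1.28 (adjusted p = 0.178). The 3 libraries per group and the low counts of *Pou2f2*, *Pou3f2*, *Pou3f3* and *Pou5f1* limit what could be detected.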
